A study of Mus musculus with 12 samples.

Results

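Potassium channel genes were examined in the ventral hippocampus of stressed and unstressed mice. The family was taken as every gene symbol that begins with Kcn, further letters and a digit, with Kcnq1ot1 left out by name, and with 10 or more counts in at least 3 of the 12 libraries. Of 23183 symbols, 96 matched the name, 16 of these fell under the minimum, and 80 were members. They comprised 35 voltage-gated channel genes, 13 inward rectifiers, 9 two-pore channels, 7 calcium- and sodium-activated channels, 13 auxiliary subunits and 3 antisense RNAs named after a channel gene. Classes were assigned by gene name, so Kcnu1 is counted as calcium- and sodium-activated by its name and not by how its channel opens. Just inside the minimum were Kcnd3os, Kcnh6, Kcnj5 and Kcnmb1, each with 10 or more counts in 5 libraries. Just outside were Kcnh8 and Kcnq1, each with that many in 2 libraries. The other 14 under the minimum were Kcna10, Kcna7, Kcne1, Kcne3, Kcnj1, Kcnj15, Kcnk15, Kcnk16, Kcnk18, Kcnk5, Kcnk7, Kcnmb3, Kcnn4 and Kcnv2. Kcnj5 did not pass the low-count filter of the fit, so 79 members were tested.

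RNA sequencing was done on 4 groups of 3 wild-type male C57BL/6J mice, which were 8 weeks old and naive when they were acquired. Controls (C) had no treatment. Stress-susceptible mice (SS) were restrained in a tube for 2 hours a day on 14 days and stayed sedentary. Mice of the other two groups went through the same restraint, were likewise susceptible, and then had a running wheel in the cage for 14 days by the sample titles or 4 weeks by the protocol. Behaviour improved in the effective responders (SES) and did not in the ineffective responders (SER). Susceptible and responder mice were sorted by their behaviour, so restrained mice that were not susceptible are outside these groups. The labels do not name separate batches or litters, and p-values measure the spread between single mice.

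Potassium channels let potassium leave the cell and so set the resting potential, the shape of the action potential and the rate of repetitive firing. Voltage-gated channels open on depolarization and end the spike. Inward rectifiers and two-pore channels hold the cell near rest, and several inward rectifiers open downstream of G-protein-coupled receptors. Calcium- and sodium-activated channels produce the hyperpolarization that follows spikes, and auxiliary subunits set the gating, inactivation and surface delivery of the channel proteins. Hippocampal pyramidal cells, interneurons and astrocytes each use a different mixture of these genes.

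The libraries held 9323607 to 15707516 counts, of which the 80 members took 0.436% to 0.497%. CPM are counts relative to library size, scaled with TMM factors between 0.97 and 1.04. With 0 counts in a library, a level of up to 3 counts (0.189 to 0.327 CPM) remains possible, by counting error alone. SS mice 19 and 21 had summed CPM of 9246 and 10840 over 4 RNAs kept in the nucleus (Malat1, Meg3, Neat1 and Snhg11), against 806 to 3371 in the other 10 libraries, and the lowest oligodendrocyte marker sums, 3266 and 3163 CPM. The 10 choroid plexus markers summed to 3762 CPM in C mouse 2, 5450 in SS mouse 18, 905 to 4990 in the SES mice and 1174 in SER mouse 19, and to 17.5 to 97.3 in the other 6 libraries. In tissue pieces, fewer cells of a type and less RNA per cell cannot be told apart.

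Measured per transcript length, as TPM (transcript counts divided by length and scaled to the same sum in each library) averaged over the 12 mice, the most abundant member was Kcnab2, the cytoplasmic beta subunit that binds Kcna channels, at 569 ± 89.2 (SD, n = 12). Kcnip2, a calcium-binding partner of Kcnd channels, stood at 259 ± 55.1. The axonal channel gene Kcna1 (118 ± 14.2), the inactivating beta subunit gene Kcnab1 (112 ± 15.4) and the leak channel genes Kcnk2 (107 ± 9.65) and Kcnk1 (91.0 ± 10.5) stood lower, and in this order each overlapped with the next within 1 SD. Kcnj3, a G-protein-gated channel subunit, and Kcnj10, the main inward rectifier of astrocytes, were nearly level at 77.9 ± 6.70 and 77.6 ± 13.0. Kcnn2, the small-conductance calcium-activated channel of the afterhyperpolarization, led its class at 49.5 ± 9.29.

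**Figure D1:**
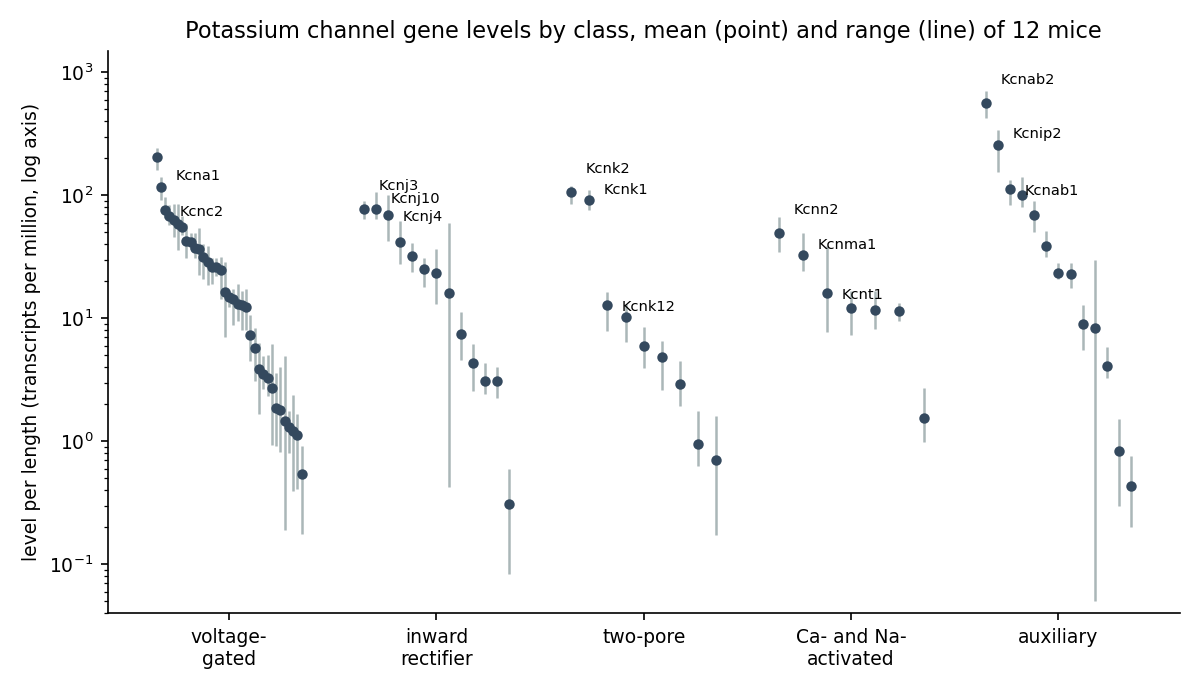
Level per transcript length of each channel and auxiliary member, by class, on a log axis in TPM. Points are means of 12 mice and lines run from the lowest to the highest mouse, with a Kcne2 value of 0 drawn at the bottom of its line. Names stand beside 2 or 3 of the more abundant genes of each class, and the 3 antisense RNAs are not drawn.

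Auxiliary genes made up 39.6% of the family's summed level per length, voltage-gated genes 34.4%, inward rectifiers 12.4%, two-pore genes 7.68%, calcium- and sodium-activated genes 4.38% and antisense RNAs 1.52%. The calcium- and sodium-activated sum was 108 ± 2.54 TPM in C, 149 ± 26.6 in SS, 140 ± 8.65 in SES and 143 ± 22.8 in SER (SD, n = 3). All 9 restrained mice, from 118 to 166, lay above the 3 controls, from 105 to 110. The auxiliary sum also lay above the controls in every restrained mouse, at 1177 to 1324 against 993 to 1161, and Kcnab2 made up the largest part of it. In SS mouse 21, Kcnab2 at 457 TPM lay within the 425 to 490 of the controls, and Kcnip2 at 340 lay above their 153 to 309. The voltage-gated sum was 929 to 1084 in C and 998 to 1227 in the restrained mice, so the groups overlapped. Inward rectifier sums were 321 to 418 in C and 348 to 411 in the restrained mice, and two-pore sums were 221 to 235 and 215 to 270. These sums were described and not tested.

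The first comparison asked how susceptible mice differed from unstressed controls. Of 79 members, 4 were called by edgeR at an adjusted p under 0.05 (3 higher, 1 lower), beside 9.83% of all 14541 genes tested, and all 4 were voltage-gated genes. Among them Kcng3 rose in SS by 1.76 and Kcns3 fell by 0.82 on the log2 scale. At an unadjusted p under 0.05 there were 23 members (11 higher, 12 lower), which is 29.1% beside 28.2% of all genes. Groups did not overlap for 22 members, or 27.8% beside 26.9%. The share of members that differed was therefore close to or below that of genes at large.

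Kcng3 encodes a silent subunit that forms no channel alone and modifies other voltage-gated subunits. Its level was low, at 1.31, 2.36 and 1.37 CPM in C mice 2, 8 and 12, 3.44, 5.80 and 7.98 in SS mice 18, 19 and 21, 3.34, 2.61 and 4.59 in SES mice 9, 10 and 12, and 3.31, 3.61 and 3.93 in SER mice 6, 19 and 20. Every restrained mouse was above every control. Against C the SS difference was 1.76 ± 0.35 (log2, SE; adjusted p = 0.0223), while 1.04 ± 0.35 in SES (adjusted p = 0.192) and 1.08 ± 0.35 in SER (adjusted p = 0.131) did not pass. Within SS the mice with more nuclear RNA were the higher ones, and the difference was 1.23 (adjusted p = 0.282) once the nuclear RNA level entered the fit as a covariate. With that covariate 0% of all genes were called in SS against C.

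Kcns3, another silent subunit, had 10.8, 13.3 and 10.7 CPM in C, 5.66, 7.37 and 6.71 in SS, 9.63, 7.30 and 7.68 in SES, and 8.44, 6.96 and 8.84 in SER. All 9 restrained mice were below all controls. It fell by 0.82 ± 0.18 in SS (adjusted p = 0.0244), and the values of −0.51 in SES (adjusted p = 0.202) and −0.53 in SER (adjusted p = 0.136) did not pass. Of 5 parvalbumin interneuron markers, Pvalb itself fell in SS (−0.78, adjusted p = 0.0223) and the other 4 were not called. Pvalb had 52.1 to 70.9 CPM in C, 31.8 to 40.3 in SS, 41.6 to 41.9 in SES and 40.6 to 50.2 in SER. All 9 restrained mice thus lay below the controls for Pvalb too. Summed CPM of the 5 markers was 495 to 561 in C, 415 to 481 in SS, 394 to 544 in SES and 473 to 519 in SER. The part of these markers in the results was not tested.

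Kcnq3, a subunit of the channels of the M-current, had 26.8, 18.7 and 16.2 CPM in C, 34.0, 24.4 and 19.9 in SS, 31.2, 23.8 and 32.2 in SES, and 37.6, 27.3 and 39.8 in SER. Its SER mice lay above C, and the difference of 0.76 did not pass (adjusted p = 0.105).

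**Figure D2:**
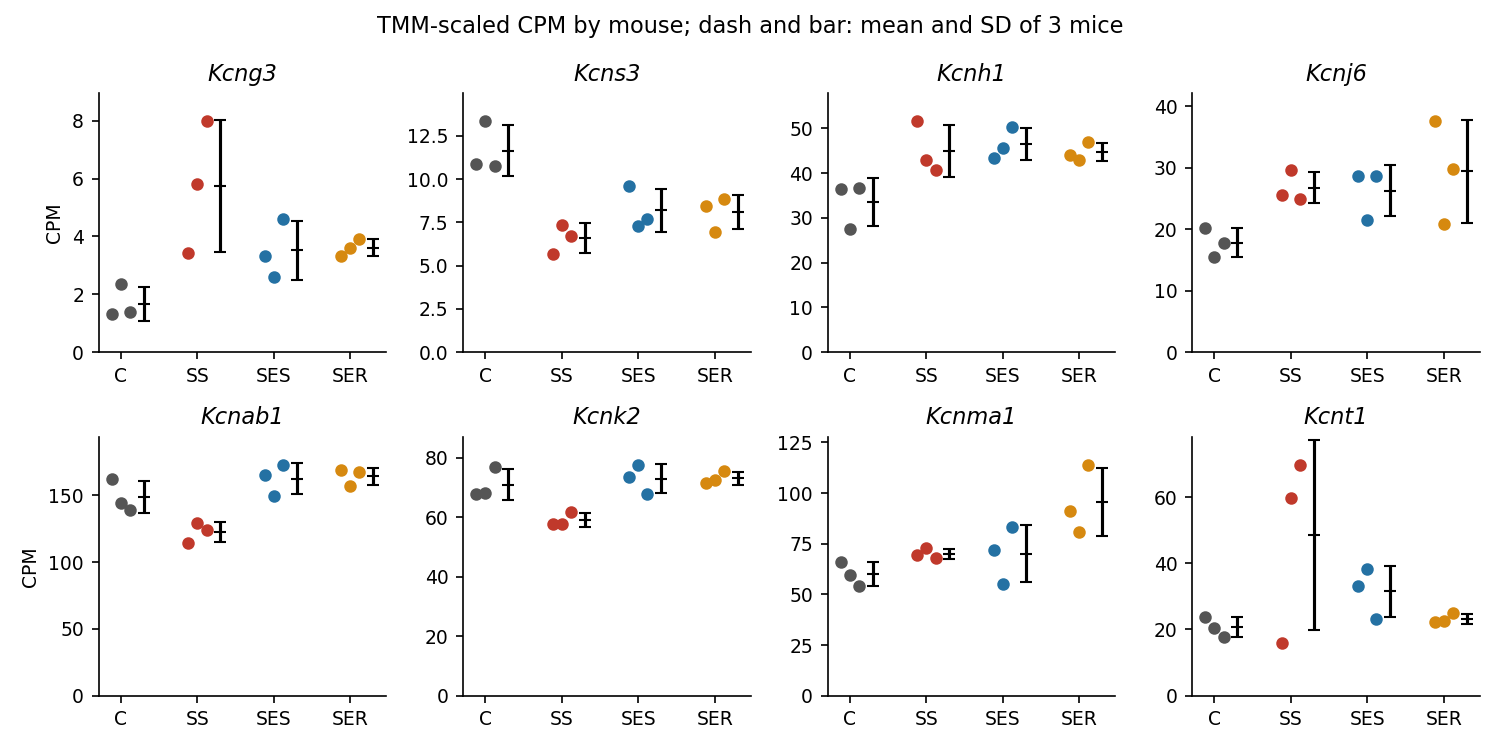
CPM of 8 members in each mouse (points) with the mean and SD of 3 mice (dash and bar) in C, SS, SES and SER. Kcng3, Kcnh1 and Kcnj6 are lowest and Kcns3 is highest in the 3 controls, and Kcnt1 is high in 2 of 3 SS mice.

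The 4 calls in SS depended on few libraries. In fits that left out 1 mouse each, Kcng3 and Kcns3 were called without C mouse 2 or SS mouse 18 only, with adjusted p from 0.000531 to 0.124 for Kcng3 and from 0.0122 to 0.124 for Kcns3. Neither log2 difference changed sign in any of these fits. The member count was 3 without C mouse 2, 15 without SS mouse 18, 1 without C mouse 12, and 0 without C mouse 8, SS mouse 19 or SS mouse 21, while the share of all genes called moved from 0% to 25.7%. Keeping SS mouse 18 alone in its group, which leaves out both libraries high in nuclear RNA, Kcns3 stood at −1.05 (adjusted p = 0.193) and Kcng3 at 1.00 (adjusted p = 0.316), with the lone mouse assumed to vary like the others. C mouse 2 and SS mouse 18 also had the highest values of the thalamic markers Tcf7l2 (33.3 and 38.1 CPM, against 7.53 to 10.2 in the other 10 mice) and Prkcd (84.1 and 59.3, against 8.64 to 17.9). Summed CPM of 6 thalamic markers was 342 and 261 in these mice and 95.1 to 188 in the others. Ramp3 of the 6 was also highest in C mouse 2 and SS mouse 18, at 19.4 and 14.2 CPM. For Lef1, Rora and Slc17a6, C mouse 8 (7.42, 108.0 and 49.7 CPM) lay above SS mouse 18 (7.28, 107.8 and 34.7). The 4 dentate granule cell markers summed to 168 to 217 CPM in C and 248.9 to 340 in SS, without overlap, and C1ql2 and Rfx3 of the 4 were called higher (adjusted p = 0.0282 and 0.0344). The part of either list in these calls was not tested.

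DESeq2, run as an alternative, called 10 members in SS against C (7 higher, 3 lower), beside 15.6% of the genes it tested. Among these, besides Kcng3 and Kcns3, were Kcnab1, Kcnh1, Kcnip2, Kcnj6, Kcnk2 and Kcnt1. Kcnh1, a slowly opening channel of the ether-à-go-go type, had 36.5, 27.4 and 36.8 CPM in C, 51.6, 42.9 and 40.6 in SS, 43.4, 45.7 and 50.4 in SES, and 44.0, 43.0 and 46.9 in SER. All restrained mice were above all controls. By edgeR its differences from C were 0.43 in SS (adjusted p = 0.0545), 0.47 in SES (adjusted p = 0.138) and 0.41 in SER (adjusted p = 0.12), none of which passed.

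The main voltage-gated genes of hippocampal axons and dendrites were not called. Kcna1 differed from C by −0.032 in SS, −0.047 in SES and 0.0017 in SER, with 159 to 238 CPM over all mice. For Kcna2, its usual partner, the values were −0.26, −0.24 and −0.12 (adjusted p 0.11 to 0.57). Kcnd2, the A-type channel of dendrites, had 144, 104 and 139 CPM in C and 109, 100.2 and 101 in SS, a difference of −0.32 (adjusted p = 0.0832). Kcnc2, a channel of fast-spiking interneurons, was higher in all 3 controls, at 99.0 to 119.7 CPM, than in the other 9 mice, at 77.4 to 92.8, and its differences of −0.28 to −0.32 did not pass (adjusted p 0.0986 to 0.182).

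In SES against C no member was called by edgeR, beside 0.179% of all genes. At an unadjusted p under 0.05 there were 19 members, or 24.1% beside 16.2%, and groups did not overlap for 16, or 20.3% beside 26%. DESeq2 called 2 members, Kcnh1 among them, both higher, beside 4.34% of its genes. In SER against C edgeR called 1 member, beside 1.19% of all genes. There were 20 members at an unadjusted p under 0.05 (25.3% beside 18.6%), 21 without overlap (26.6% beside 25.3%) and 7 called by DESeq2 (6 higher, 1 lower, beside 5.64%).

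A pair of members came close to the threshold in SER. Kcnma1, the large-conductance calcium- and voltage-activated channel, had 65.9, 59.4 and 54.1 CPM in C, 69.5, 72.9 and 68.1 in SS, 72.1, 55.1 and 83.3 in SES, and 91.4, 81.0 and 114 in SER. The SER mice lay above C and SS and overlapped with SES. The SER difference from C was 0.67 ± 0.15 (adjusted p = 0.0504), and it was called in 8 of 16 alternatives. Kcnab2 had 713 to 815 CPM in C, 682 to 1007 in SS, 948 to 981 in SES and 1036 to 1092 in SER, a SER difference of 0.47 ± 0.12 (adjusted p = 0.0722). Summed CPM of 5 neuron markers was 9478 to 10221 in C and 10947 to 11572 in SER, and the 5 did not go one way. Camk2a was called higher in SER (0.63, adjusted p = 0.0119), at 6098 to 6284 CPM against 3824 to 4058 in C. Snap25, at 2051 to 2312 against 2709 to 2998, and Syt1, at 1264 to 1412 against 1427 to 1684, lay below C without overlap and were not called (adjusted p = 0.101 and 0.239). The part of these markers in the results was not tested.

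The comparisons with SS asked how runners of either kind differed from sedentary susceptible mice. No member was called by edgeR in SES, beside 0% of all genes, or in SER, beside 0.0481%. At an unadjusted p under 0.05 there were 9 members in SES (11.4% beside 9.01%) and 13 in SER (16.5% beside 18.2%). Groups did not overlap for 10 members in SES (12.7% beside 12.2%) and 14 in SER (17.7% beside 16.9%). DESeq2 called 1 member in SES, beside 0.204%, and 4 in SER, beside 3.7%.

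Kcnab1, whose protein gives Kcna channels rapid inactivation, had the smallest p in both. It had 162, 145 and 139 CPM in C, 114, 129 and 124 in SS, 165, 149.6 and 173 in SES, and 169, 157 and 167 in SER. The SS mice were the lowest 3 of 12. SES differed from SS by 0.41 ± 0.09 (adjusted p = 0.524) and SER by 0.42 ± 0.09 (adjusted p = 0.0914), and SS from C by −0.28 (adjusted p = 0.0644), none of which passed. Over 17 alternatives the adjusted p ran from 0.0243 to 0.979 in SES and from 0.0026 to 0.389 in SER.

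Kcnk2, a leak channel that responds to membrane stretch and lipids, followed the same order, with 67.8, 68.3 and 77.0 CPM in C, 57.8, 57.8 and 61.7 in SS, 73.7, 77.7 and 67.8 in SES, and 71.4, 72.5 and 75.7 in SER. Differences from SS were 0.31 in both running groups (adjusted p = 0.524 in SES and 0.123 in SER). Kcnj2, a strong inward rectifier, had 13.0, 9.21 and 9.45 CPM in C, 5.97, 6.51 and 8.07 in SS, 10.0, 13.9 and 8.96 in SES, and 8.99, 9.63 and 13.2 in SER. Its SS mice were again the lowest, and 0.67 in SES and 0.62 in SER did not pass (adjusted p = 0.524 and 0.18).

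Set against the other 9 mice together, a description chosen after the values were seen, 5 members kept all 3 SS mice outside the range of the rest, or 6.33% beside 3.6% of all genes. Of these 1 was higher, and Kcnab1, Kcnk2, Kcnj2 and Kcnh5 were lower. The 3 controls stood apart from the 9 restrained mice for 9 members, or 11.4% beside 8.74%. Kcng3, Kcnh1 and Kcnj6 were among the 4 lower in C, and Kcnc2, Kcns3, Kcna6, Kcnj3 and Kcnk13 were higher.

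SES against SER asked which genes separated mice that benefited from running from mice that did not. No member was called by edgeR, beside 0.0275% of all genes, nor by DESeq2, beside 0.0413%. At an unadjusted p under 0.05 there were 8 members (10.1% beside 3.72%), and groups did not overlap for 11 (13.9% beside 10.8%). The smallest p belonged to Kcnma1, at −0.44 ± 0.15 (adjusted p = 1), whose 3 SES values overlapped with those of SER. Kcnk6, a weakly expressed two-pore gene, had 5.48, 7.56 and 5.20 CPM in SES and 4.65, 3.44 and 4.15 in SER, a difference of 0.57 ± 0.21 (adjusted p = 1). The groups did not overlap, and the next members, Kcng4 and Kcna5, also had an adjusted p of 1.

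By class, the median log2 difference of SS from C was 0.12 over 35 voltage-gated genes, −0.11 over 12 inward rectifiers, 0.01 over 9 two-pore genes, 0.25 over 7 calcium- and sodium-activated genes and −0.24 over 13 auxiliary genes, beside 0.02 over all genes. Medians in SES against C were 0.04, −0.08, 0.04, 0.25 and −0.09, and in SER against C −0.02, −0.06, −0.05, 0.25 and −0.17, in the same order. These 3 comparisons share their controls. Measured mouse by mouse against the C mean, the calcium- and sodium-activated median was 0.11, 0.33 and 0.29 in SS mice 18, 19 and 21, while the voltage-gated median was −0.0045, 0.19 and 0.21. In both classes SS mouse 18 was the lowest of the 3. In SES against SER the medians were 0.01, −0.01, 0.00, −0.07 and 0.01. The classes were not tested against each other, and the 4 calls in SS were 11.4% of the 35 voltage-gated genes, near the 9.83% of all genes called. The other 4 classes held 0 calls among 41 genes.

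**Figure D3:**
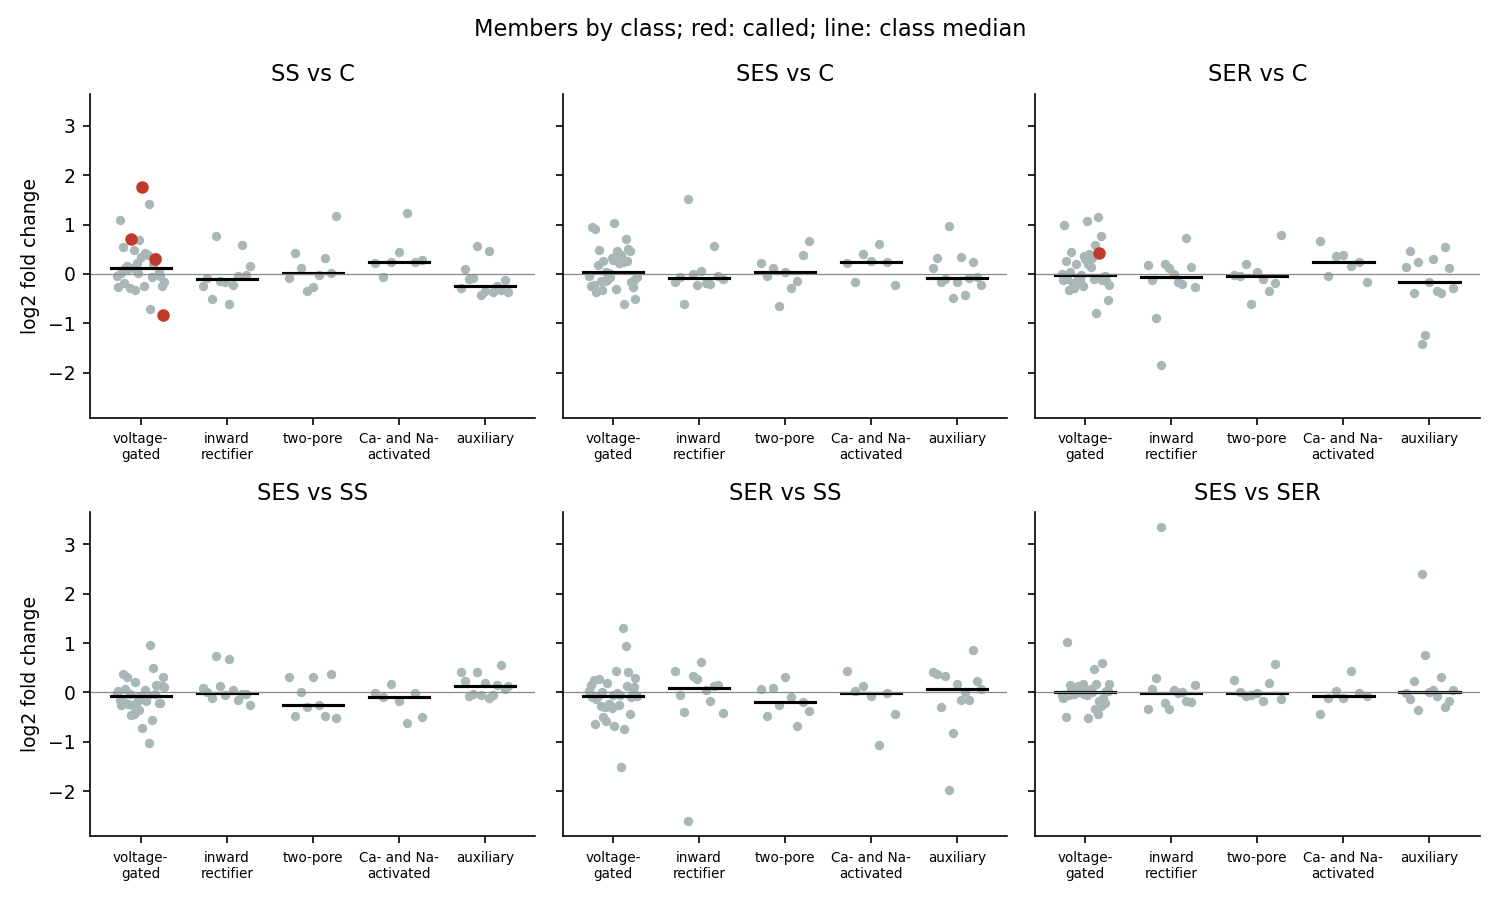
Log2 fold change of each tested member (points) in the 6 comparisons, by class, with the class median as a line and members called at an adjusted p under 0.05 in red. The 4 red points in SS vs C and the 1 in SER vs C are voltage-gated, and the 3 antisense RNAs are not drawn.

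Among inward rectifiers, none of the 12 tested was called in any comparison by edgeR. Kcnj6, a subunit of the G-protein-gated channels that carry slow inhibition, had 20.2, 15.4 and 17.8 CPM in C, 25.6, 29.6 and 25.0 in SS, 28.7, 21.4 and 28.6 in SES, and 37.5, 20.8 and 29.8 in SER. All 9 restrained mice were above C, and the differences of 0.59, 0.56 and 0.73 did not pass (adjusted p = 0.0715, 0.207 and 0.086). Kcnj3, which pairs with Kcnj6, stood below C in the restrained mice. It had 189, 168 and 168 CPM in C and 133 to 165 in the other 9 mice, with differences of −0.21, −0.17 and −0.15 (adjusted p 0.131 to 0.38). Kcnj10 had 182, 193 and 159 CPM in C and 229.7, 162 and 213 in SER, which overlapped, at 0.18 (adjusted p = 0.533). The 8 astrocyte markers summed to 6319 to 7058 CPM in C and 8740 to 10034 in SER. Slc1a2 was the largest part of the sum, at 3360 to 3946 in C and 5070 to 6312 in SER. Slc1a2, Slc1a3, Aldoc, Sox9 and Gjb6 lay above C in SER without overlap. Gja1, Gfap and Aqp4 overlapped, with Aqp4 at 177 to 204 in C and 129 to 193 in SER. The part of this list in the Kcnj10 values was not tested.

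Kcnj13 and Kcne2, both known from the epithelium of the choroid plexus, varied most. Kcnj13 had 16.3, 0.785 and 0.515 CPM in C, 29.3, 0.235 and 0.425 in SS, 5.35, 31.1 and 12.7 in SES, and 0.552, 3.87 and 0.218 in SER. Kcne2, an auxiliary subunit, had 14.8, 0 and 0.172 CPM in C, 21.4, 0.314 and 0.255 in SS, 5.79, 16.5 and 6.17 in SES, and 0.237, 4.56 and 0.545 in SER. Both were high in the 6 libraries with high choroid plexus marker sums and near the floor in the other 6, within every group but SES, where all 3 were high. In SES against SER, Kcnj13 stood at 3.36 (adjusted p = 1) and at 1.24 (adjusted p = 0.712) once the choroid plexus marker level entered the fit. No marker of the list was at 0 in the 6 high libraries, while Folr1, Otx2 and Slc4a5 each reached 0 in 1 or 2 of the other 6.

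The 100 bases before the RefSeq start sites of both genes (assembly GRCm38.p6, each on the gene's own strand) are shown because their RNA varied together across libraries. Capitals mark a TATA box, searched as TATAAA on both strands.

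Kcnj13, chr1:87394730-87394829, minus strand: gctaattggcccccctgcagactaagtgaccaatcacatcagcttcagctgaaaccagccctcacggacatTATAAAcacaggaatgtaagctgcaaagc

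Kcne2, first start, chr16:92292289-92292388, plus strand: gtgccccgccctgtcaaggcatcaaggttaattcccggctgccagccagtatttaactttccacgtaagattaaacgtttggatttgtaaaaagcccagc

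Kcne2, second start, chr16:92295516-92295615, plus strand: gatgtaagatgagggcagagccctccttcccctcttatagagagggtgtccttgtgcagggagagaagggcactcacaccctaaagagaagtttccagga

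The Kcnj13 match begins 29 bases before the start site. In windows from 250 bases before to 50 after the start, TATAAA occurred in 4 of 81 promoters of 57 matched members (4.94%) and in 13.6% of all 32851 promoters. The bicoid-type site TAATCC occurred in 2 of 81 and in 7.06% of all, and the cyclic AMP response element TGACGTCA in 0 of 81 and in 1.79% of all. A match is a description of letters and not of binding.

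**Figure D4:**
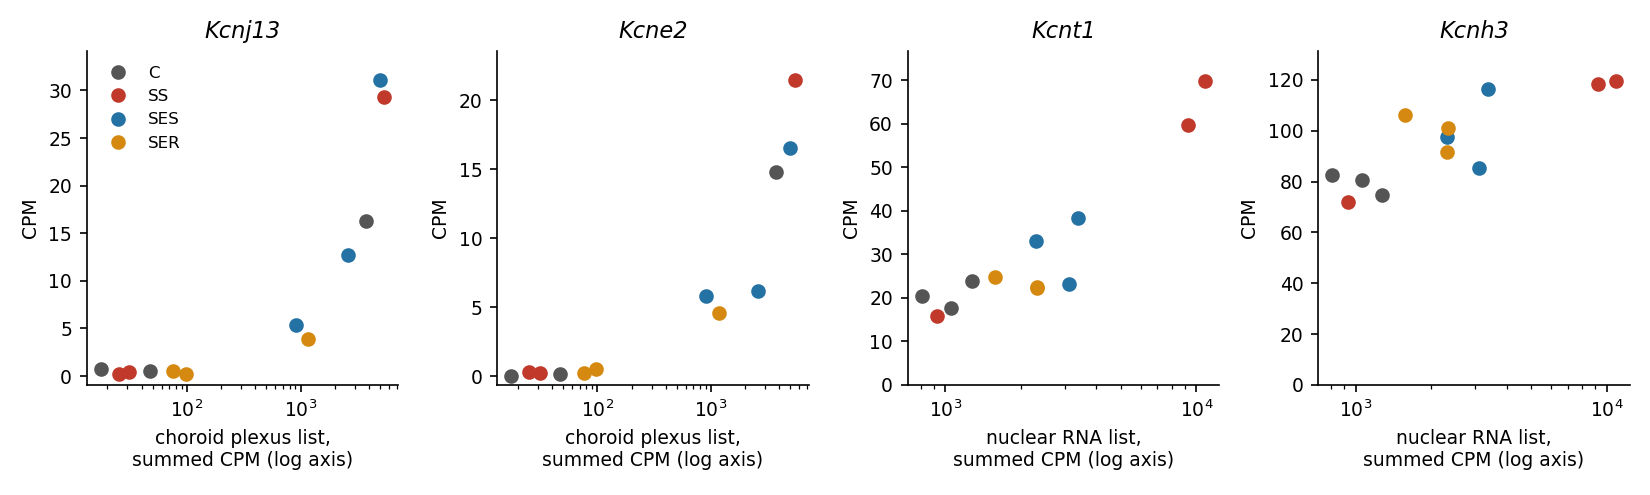
CPM of Kcnj13 and Kcne2 against the summed CPM of 10 choroid plexus markers, and of Kcnt1 and Kcnh3 against the summed CPM of 4 nuclear RNAs (log horizontal axis, linear vertical axis), with 1 point per mouse coloured by group. Kcnj13 and Kcne2 are high where the marker sum is above 900, and Kcnt1 and Kcnh3 are highest in the SS mice with sums of 9246 and 10840.

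The 9 two-pore genes included no call by edgeR in any comparison. Besides Kcnk2, Kcnk1 had 81.9, 79.3 and 83.9 CPM in C, 91.6, 66.8 and 71.9 in SS, 91.0, 101 and 93.7 in SES, and 85.6, 73.5 and 81.5 in SER. The SES mice were above C and its difference of 0.22 did not pass (adjusted p = 0.344). Kcnk13, a halothane-inhibited channel, had 6.99 to 8.50 CPM in C and 3.44 to 6.98 in the other mice, with differences of −0.35, −0.65 and −0.60 (adjusted p 0.174 to 0.325). Kcnk9, an acid-sensitive leak channel, had 0.945 to 3.93 CPM in C and 1.31, 7.37 and 5.52 in the SS mice. The last 2 of these are the libraries high in nuclear RNA. SER mouse 20, with 1572 CPM of nuclear RNA, stood at 1.33 TPM of Kcnk9, between SS mice 19 (1.60) and 21 (1.16).

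Kcnt1, a sodium-activated channel, showed the same split within SS. It had 23.8, 20.5 and 17.7 CPM in C, 15.9, 59.8 and 69.8 in SS, 33.0, 38.3 and 23.1 in SES, and 22.2, 22.4 and 24.9 in SER. Only SS mice 19 and 21 lay above all the others, and SS mouse 18 was the lowest of 12. The SS difference of 1.24 did not pass (adjusted p = 0.0535). It was 1.64 without SS mouse 18, −0.38 with SS mouse 18 alone, and −0.17 (adjusted p = 0.797) once the nuclear RNA level entered the fit. Kcnh3, a forebrain channel of the ether-à-go-go type, had 72.0, 118 and 119.5 CPM in the same SS mice and 74.6 to 82.8 in C. Its values were 97.7, 116 and 85.5 in SES and 91.5, 101 and 106 in SER, all above C. Kcnh4 had 0.303, 4.31 and 7.13 in SS, 0.429 to 2.15 in C, 1.45 to 2.41 in SES and 0.788 to 2.06 in SER.

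The other calcium-activated genes were steadier. Kcnn2 had 24.8, 26.9 and 35.6 CPM in C, 35.3, 32.7 and 35.2 in SS, 42.0, 35.6 and 38.2 in SES, and 46.0, 30.5 and 36.1 in SER, with overlap in every comparison with C and differences of 0.24 to 0.41 (adjusted p 0.241 to 0.353). Kcnn1 differed from C by −0.068 in SS, −0.17 in SES and −0.046 in SER, and Kcnn3 by 0.45, 0.27 and 0.38, none of which passed.

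Among auxiliary genes, 10 of 13 had a negative difference in SS against C. Kcnip3 stood at −0.36 (adjusted p = 0.121), with 127, 164 and 118 CPM in C and 95.9, 107 and 117 in SS. Kcnip2 stood at 0.46 (adjusted p = 0.0785), with 135, 108 and 183 in C and 204, 194 and 187 in SS. The groups did not overlap for either gene, with SS below C for Kcnip3 and above C for Kcnip2. Both encode proteins that bind Kcnd channels. The antisense RNAs were not called: Kcnmb4os2 had 12.7 to 19.5 CPM over all mice, Kcnmb4os1 4.37 to 10.7 and Kcnd3os, the weakest, 0.303 to 1.29. Each overlaps its channel gene on the opposite strand by 165 to 693 exonic bases, so reads may have been divided between them.

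Of 25 tested genes for proteins that bind, cluster or regulate potassium channels without a Kcn name, 2 rose and 1 fell in SS (12% beside 9.83% of all genes), 1 rose in SER against C (4% beside 1.19%), and edgeR called none in the other 4 comparisons. The risers in SS were Abcc8, the sulfonylurea receptor of ATP-sensitive channels (0.71 ± 0.19, adjusted p = 0.0349), and Adam11, which places Kcna channels at cerebellar terminals (0.58 ± 0.12, adjusted p = 0.0223). Abcc8 had 12.8 to 13.2 CPM in C and 14.97, 24.2 and 24.6 in SS mice 18, 19 and 21, so the higher values were again those of the libraries high in nuclear RNA. Adam11 had 118 to 157 CPM in C and 204, 225 and 217 in the same SS mice. Vapa, which tethers membrane proteins to the endoplasmic reticulum, fell by 0.33 (adjusted p = 0.0453). In SER, Dlg4, a scaffold of the postsynaptic density that clusters Kcna channels, rose by 0.53 ± 0.09 (adjusted p = 0.0211). The median over the 25 genes was −0.01 in SS and 0.02 in SER against C.

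Single transcripts were tested as an alternative, and 0 of 117 member transcripts were called by edgeR in any of the 6 comparisons. Of all 20402 transcripts tested, 0.0098% were called in SS, 0.0196% in SES and 0.123% in SER against C, 0% in SES and 0.0392% in SER against SS, and 0.0245% in SES against SER. At an unadjusted p under 0.05 stood 17, 18 and 24 member transcripts in SS, SES and SER against C. Shares of transcripts within a gene are given for 2 members, chosen after their values were seen and with no test. How many other members, or genes at large, part in the same way was not counted. Kcnc1, a channel gene that serves fast firing, has a 2-exon and a 4-exon model that share their first 1504 coding bases. The 2-exon model took 49.5 ± 0.65% of the counts of Kcnc1 in C, 59.3 ± 2.99% in SS, 57.6 ± 3.0% in SES and 59.1 ± 1.29% in SER (SD, n = 3). The 3 controls, at 49.1% to 50.2%, lay below all 9 restrained mice, at 54.2% to 61.9%. These are shares of estimated counts, and the 2-exon model is the longer RNA, at 7760 against 3156 bases. Summed over both models, Kcnc1 had 156, 133 and 118 CPM in C, 135, 146 and 155 in SS, 121, 121 and 128 in SES, and 115, 119.6 and 123 in SER.

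The point where the coding sequences part is shown (GRCm38, plus strand), with the last 30 shared bases in lower case and the first 30 bases of each model's own coding sequence in capitals. In the 2-exon model the reading continues without a splice, and the 4-exon model joins the shared part to an exon that begins at position 46435158.

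Kcnc1, 2-exon model, chr7:46428250-46428309: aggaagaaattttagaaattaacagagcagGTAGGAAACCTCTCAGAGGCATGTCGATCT

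Kcnc1, 4-exon model, spliced between 46428279 and 46435158: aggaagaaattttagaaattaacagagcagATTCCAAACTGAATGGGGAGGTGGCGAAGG

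Kcnip4 encodes another partner of Kcnd channels. Its most abundant transcript took 53.3% to 72.3% of the gene's counts in C and its second took 25.9% to 43.7%. In SES the second took 0% to 0.0808% and in SER 0% to 2.69%, and it took 2.17%, 0.133% and 21.2% in SS mice 18, 19 and 21. The 9 restrained mice lay below the 3 controls. Summed over transcripts the gene had 63.9 to 85.5 CPM in C, 59.1 to 70.0 in SS and 63.4 to 82.9 in SES, which overlapped. The SER mice, at 51.1 to 61.3, lay below the 3 controls, and the difference of −0.39 did not pass (adjusted p = 0.145).

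**Figure D5:**
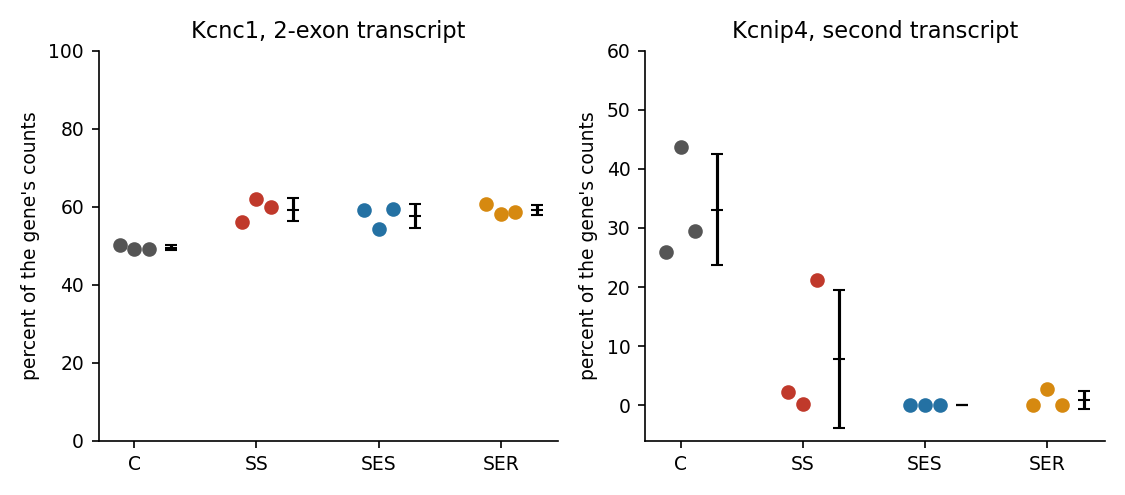
Percent of a gene's counts assigned to the 2-exon transcript of Kcnc1 and to the second most abundant transcript of Kcnip4, in each mouse (points) with the mean and SD of 3 mice (dash and bar). The 3 controls lie below the 9 restrained mice for Kcnc1 and above them for Kcnip4.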

How the data were processed

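The authors deposited 1 table per mouse with estimated counts for 33299 RefSeq transcripts, whole numbers that are not normalized. TopHat and mm10 are named in the submitters' processing notes. Which program counted the reads, whether it used strand and which annotation it drew on is not given in the sources used here. Division of reads among isoforms and overlapping genes is therefore uncertain. Per the labels' protocols, total RNA from Trizol went into directional NEBNext libraries. Transcript values were summed per symbol, filtered with filterByExpr (minimum count 10, 14541 genes left), scaled with TMM and tested with edgeR 4.0.16 (quasi-likelihood F test, 4 group means, 8 residual degrees of freedom) in R 4.3.3. P-values were adjusted over all genes tested by the Benjamini-Hochberg method, and errors of log2 differences are standard errors from the F statistic. Every adjusted p is from this edgeR fit unless DESeq2 is named. The fit was tested on simulated data.

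Alternatives were DESeq2 1.42.0, limma-voom (limma 3.58.1), upper-quartile factors, 2 other low-count filters, single transcripts, the 2 groups compared alone, nuclear RNA or choroid plexus level as a covariate, and fits without 1 or more mice. The fit that kept SS mouse 18 alone in its group was added after the data had been seen. Lengths came from GENCODE M21, matched by transcript identifier for 149 of 149 member transcripts and 31960 of 33299 in all, and transcripts with no length were left out of that scale. Gene positions and promoters came from RefSeq (GRCm38.p6), with a promoter for 57 of 80 members. Members, classes, partner genes and markers were chosen with earlier results of these data known. Genes named were those called in any comparison, up to 10 per class, the 3 most abundant per class, the 2 with the smallest p per comparison and a standing list of well-known channels. Some members that met this rule are not reported here. Others were named after their values were seen, as members whose groups did not overlap, that DESeq2 called, or that varied with a marker list.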

Additional observations from a re-analysis of the deposited data

How the results depend on the processing

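No paired analysis was possible because the groups share at most 1 mouse number, and nothing in the labels ties mice of different groups together. Call counts were the least stable values. The number of members called in SS against C (4) became 0 with nuclear RNA as a covariate and with only the 2 groups compared. In both of these settings 0% of all genes were called. With transcripts as deposited it also became 0, beside 0.0098% of all transcripts. It became 7 with a choroid plexus covariate, 10 with DESeq2 and 9 when C mouse 2 and SS mouse 18 were left out, where 13.9%, 15.6% and 24.8% of all genes were called against 9.83%. In SER against C (1, beside 1.19%) it became 2 with either other filter, beside 1.09% and 1.25% of all genes. It became 5 with nuclear RNA and 4 with choroid plexus as a covariate (2.91% and 2.79%), and 7 with DESeq2 (5.64%). It became 3 with only the 2 groups (1.99%), 5 when those mice were left out (5.41%), and 0 with transcripts (0.123%). DESeq2 gave 2 in SES against C, 1 in SES against SS and 4 in SER against SS, beside 4.34%, 0.204% and 3.7% of its genes. The edgeR fit without those 2 mice gave 6, 10 and 16 in the same order, beside 6.31%, 9.71% and 17.5% of all genes. The edgeR fit of all 12 libraries called 0 members in each. Leaving out single mice gave 0 to 15 in SS against C, beside 0% to 25.7% of all genes. In SER against C it gave 0 to 2, beside 0.0407% to 1.17%. Against SS it gave 0 to 7 in SES, beside 0% to 8.69%, and 0 to 14 in SER, beside 0.0271% to 16.5%. SES against SER stayed at 0 in every alternative.

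Class medians moved by more than the replicate spread as follows. With nuclear RNA as a covariate, SS against C became −0.050 for voltage-gated, −0.32 for inward rectifier, −0.13 for two-pore and 0.068 for calcium- and sodium-activated genes. In SES against C it gave −0.089 for voltage-gated and 0.094 for calcium- and sodium-activated genes, for two-pore genes 0.087 in SES and −0.062 in SER against SS, and for voltage-gated genes 0.055 in SER against SS. With SS mouse 18 alone, SS against C gave −0.057, −0.36, −0.19, 0.10 and −0.10 for voltage-gated, inward rectifier, two-pore, calcium- and sodium-activated and auxiliary genes. The same setting gave 0.094, 0.27, 0.12 and 0.10 for the first 4 in SES against SS, and 0.13, 0.29 and 0.17 for voltage-gated, inward rectifier and calcium- and sodium-activated genes in SER against SS. Without C mouse 2 and SS mouse 18, the voltage-gated median was 0.26 and the calcium- and sodium-activated 0.42 in SS against C, and in SER against C inward rectifiers stood at 0.11 and auxiliary genes at 0.057. With a choroid plexus covariate, voltage-gated genes stood at 0.14 in SES against C, two-pore genes at −0.079 in SES against SS and auxiliary genes at −0.043 in SER against C, where limma-voom gave 0.063 and the 2 groups alone −0.024. Leaving out single mice moved the SER against C medians over −0.0052 to 0.072 (voltage-gated), −0.18 to 0.12 (inward rectifier), −0.20 to 0.031 (two-pore), 0.17 to 0.44 (calcium- and sodium-activated) and −0.23 to 0.072 (auxiliary), two-pore genes over −0.31 to −0.048 in SES and −0.22 to −0.027 in SER against SS, and voltage-gated genes over 0.043 to 0.20 in SS against C.

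Differences that changed sign were Kcnt1 in SS against C (−0.17 with nuclear RNA as a covariate, −0.38 with SS mouse 18 alone) and in SER against SS (0.55, SS mouse 18 alone), Kcnh3 in SS against C (−0.052 and −0.15), Kcng3 in SES against SS (0.035, SS mouse 18 alone), and, on the most abundant transcript alone, Kcnab1 in SS against C (0.034), Kcnh1 in SES (−0.32) and SER (−0.21) and Kcnip4 in SER against C (0.16). Of the 5 calls, none changed sign. The cause was not tested, beyond the fewer mice or other features each alternative holds by construction. Members near 1 CPM rest on few counts, so their differences are the least certain.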
